A study of Mus musculus with 6 samples.

Results

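The 8 genes described here belong to the cell division machinery and were followed in virus-specific CD8+ T cells of mice that either had or lacked B cells: the kinase gene Cdk1, the cyclin genes Ccna2 and Ccne1, the mitotic kinase genes Aurka, Aurkb and Plk1, and the activator genes Cdc20 and Cdc25c. They were chosen by gene symbol and make up 8 of the 1018 genes in the deposited table. The cells came from the spleen at day 7 of infection with murine cytomegalovirus (MCMV) and were sorted as CD8+ T cells able to bind a tetramer of MHC molecules loaded with the viral M45 peptide. The JHT group held 3 libraries (JHT-1 to JHT-3) from mice whose heavy chain locus has lost its joining segments, so that B cells are missing from birth. The WT group held 3 libraries (WT-1 to WT-3) from wild-type mice with B cells. All mice were adults of both sexes on the C57BL/6J background, WT mice were littermates, both groups were infected, and the same number of tetramer+ cells was taken from each group, so no uninfected cells are compared here. The 3 libraries of a group came from 3 mice. The spread between libraries holds that between mice together with that of sorting, amplification and sequencing, which a single library per mouse cannot separate.

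In dividing cells, cyclins rise and fall in turn and switch on cyclin-dependent kinases, which drive DNA replication and then mitosis. The Aurora kinases and Plk1 build the spindle and separate the daughter cells, and Cdc20 directs the anaphase-promoting complex to destroy mitotic cyclins and let sister chromatids part. Antigen-specific CD8+ T cells divide many times in the first week of a viral infection, and the messages of these genes are mostly made in cells that are cycling. In a bulk sample, a larger share of cycling cells and more message per cycling cell cannot be told apart.

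The deposited values are scaled for gene length and library, so that levels can be compared between genes, but it is not stated whether they are RPKM or TPM. The values of 1018 of 1018 genes came back as whole reads to within 0.001 of a read, which gave 4040416 to 5742545 reads over the table in JHT libraries and 1909193 to 2888084 reads in WT libraries. In the study's own test all 1018 genes changed by 2-fold or more with an unadjusted p under 0.05, so the table was selected on this very contrast, and p-values below are conditional on it. Genes outside the table were not analysed here. Of 10 CD8 T cell markers, Lck was in the table, and of 31 markers of B, erythroid, myeloid, NK and dendritic cells, Bpgm, a red cell enzyme, was in the table. Bpgm had 13.9, 13.1 and 10.2 in JHT libraries 1 to 3, against 1.65, 6.14 and 4.45 in WT libraries 1 to 3, and the part of other cells in the results was not tested. The immunoglobulin joining segments themselves were not analysed here.

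The promoters of Cdk1, Ccne1, Aurka, Plk1 and Cdc20 are shown because genes of late cell cycle phases often carry a cell cycle genes homology region (CHR, letters TTTGAA), which binds the MuvB complexes, beside CCAAT boxes, which bind NF-Y. The windows run from 250 bases before to 50 bases after the start site in RefSeq's annotation of GRCm38.p6, 5′ to 3′ along the gene, and 5 of the 8 genes matched the table of windows. Capitals mark TTTGAA, the related letters TTTAAA, the box CCAAT (written ATTGG where it lies on the other strand) and the E2F letters TTTCCCGC or TTTCGCGC or TTTGCCGC or TTTGGCGC, searched on both strands.
Cdk1 chr10:69352863-69353162 (- strand): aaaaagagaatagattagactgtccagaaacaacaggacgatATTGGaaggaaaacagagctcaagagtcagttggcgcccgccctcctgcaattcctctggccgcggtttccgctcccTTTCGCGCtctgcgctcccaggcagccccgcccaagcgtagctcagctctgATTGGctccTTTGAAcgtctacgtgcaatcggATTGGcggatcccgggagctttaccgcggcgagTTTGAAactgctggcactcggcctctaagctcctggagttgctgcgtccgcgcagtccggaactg
Ccne1 chr7:38107441-38107740 (- strand): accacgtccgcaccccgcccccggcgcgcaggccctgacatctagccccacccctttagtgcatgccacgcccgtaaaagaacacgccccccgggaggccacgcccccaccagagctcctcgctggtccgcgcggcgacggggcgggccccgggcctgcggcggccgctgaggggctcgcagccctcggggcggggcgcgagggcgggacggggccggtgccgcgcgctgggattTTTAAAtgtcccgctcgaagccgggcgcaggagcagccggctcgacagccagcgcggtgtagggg
Aurka chr2:172370521-172370820 (- strand): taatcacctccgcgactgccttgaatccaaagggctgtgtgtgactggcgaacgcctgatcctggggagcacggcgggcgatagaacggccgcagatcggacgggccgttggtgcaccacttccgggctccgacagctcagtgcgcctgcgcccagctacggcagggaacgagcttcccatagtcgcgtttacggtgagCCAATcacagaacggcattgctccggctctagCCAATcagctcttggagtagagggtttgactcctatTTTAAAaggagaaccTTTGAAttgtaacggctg
Plk1 chr7:122159185-122159484 (+ strand): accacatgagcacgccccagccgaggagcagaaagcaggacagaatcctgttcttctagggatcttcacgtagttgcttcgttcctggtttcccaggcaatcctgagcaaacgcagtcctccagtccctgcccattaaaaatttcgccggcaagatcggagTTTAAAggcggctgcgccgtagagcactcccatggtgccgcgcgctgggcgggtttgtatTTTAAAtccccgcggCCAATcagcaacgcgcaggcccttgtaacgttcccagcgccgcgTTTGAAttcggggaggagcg
Cdc20 chr4:118437294-118437593 (- strand): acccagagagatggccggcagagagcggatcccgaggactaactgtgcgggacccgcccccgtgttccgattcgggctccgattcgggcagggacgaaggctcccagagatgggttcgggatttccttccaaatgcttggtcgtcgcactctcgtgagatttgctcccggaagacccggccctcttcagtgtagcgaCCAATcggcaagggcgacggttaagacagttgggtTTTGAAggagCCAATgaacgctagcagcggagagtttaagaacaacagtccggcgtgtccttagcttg
TTTGAA was present in 4 of the 5 windows, at -71 and -15 from the start site in Cdk1, at 33 in Aurka, at 31 in Plk1 and at -18 in Cdc20, and was not in the Ccne1 window. The same 4 windows held CCAAT letters. TTTAAA was in the windows of Ccne1, Aurka and Plk1, and an E2F sequence, TTTCGCGC at -131, was in that of Cdk1 alone. Over all 32851 windows of the reference, 17.9% held TTTGAA, 37.4% held CCAAT, 6.95% held both, 13.2% held TTTAAA and 2.26% held an E2F sequence. A match is a description of letters, not a binding site.

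With the deposited scaling all 8 genes had higher values in every JHT library than in any WT library. With the medians of the libraries set equal the log2 change of Cdk1 was -0.10 ± 0.26 (SE). With quantile normalization it was -0.02 ± 0.28 (SE), so both lay below 0 by less than the SE. With the deposited scaling all 8 were called higher by limma's test across the table (adjusted p under 0.05, Benjamini-Hochberg). This has to be read against the table itself, in which 96.6% of genes were called higher in JHT and 96.6% had every JHT library above every WT library, while 3.44% were called lower. The fold of group means ran from 2.54 for Cdk1 to 5.77 for Ccne1, with a median of 3.36, beside 2.89 over all genes of the table. limma estimated infinite prior degrees of freedom, so with the deposited scaling each limma SE is the spread shared by genes of like level and not the gene's own (SEs of ratios come from the pair's own libraries), and for a single gene taken alone 3 against 3 libraries cannot go below an exact permutation p of 0.1. Ccne1 and Cdc20 lay at the 97.1st and 91.9th percentile of log2 change over the table, and the other 6 between the 38.4th and the 72.3rd.

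**Figure D1:**
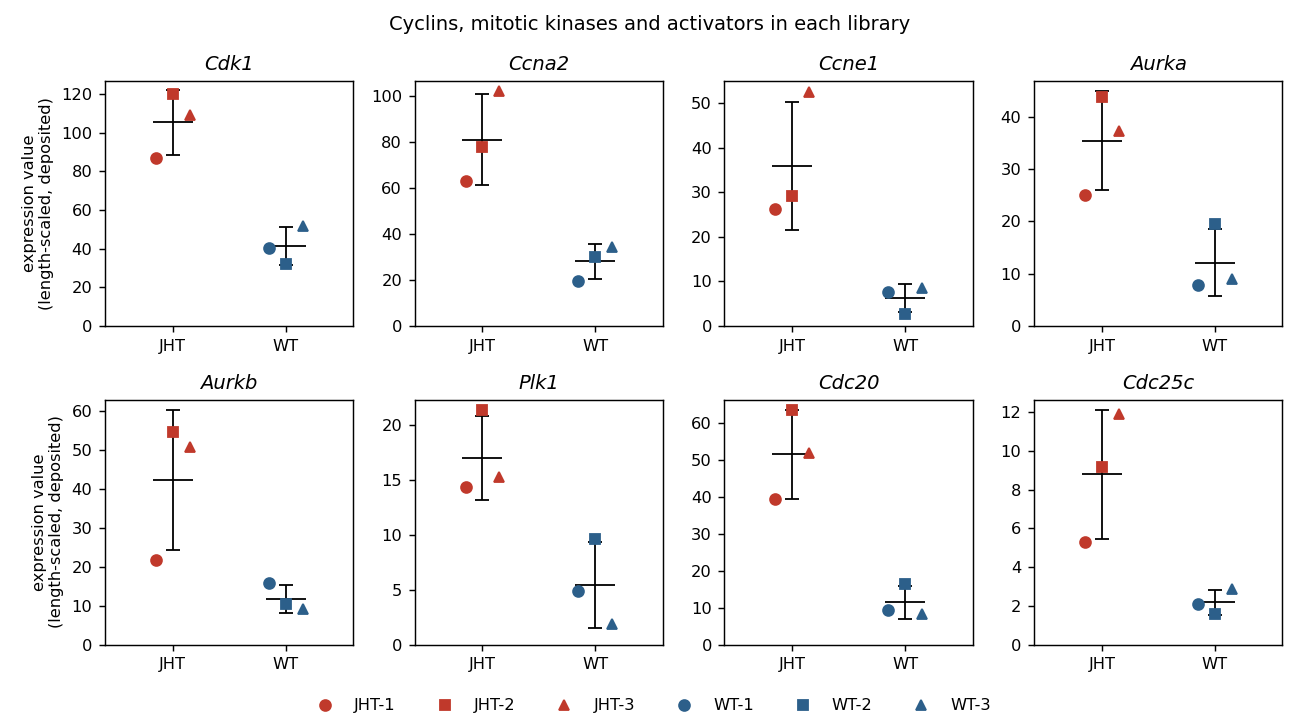
Expression value (length-scaled, as deposited; y axis, from 0) of each gene in 3 JHT libraries (left) and 3 WT libraries (right), with the mean and SD in black. In every panel the lowest JHT library lies above the highest WT library, by 1.28-fold for Aurka and 3.08-fold for Ccne1. Under equal medians and quantile normalization the change of Cdk1 lies below 0 by less than its SE.

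Cdk1 and Ccna2 came first in level in both groups. Cdk1, the kinase whose activity starts mitosis, had values of 86.8, 120.0 and 109 in JHT libraries 1 to 3, against 40.6, 32.0 and 51.7 in WT libraries 1 to 3. The JHT libraries averaged 105 ± 16.9 and the WT libraries 41.4 ± 9.89 (SD, n = 3 each), with a log2 change of 1.34 ± 0.39 (SE; limma adjusted p = 0.00108). The lowest JHT library was 1.68-fold above the highest WT library, and Cdk1 had the most reads of the 8 genes, 23202 in JHT and 8357 in WT libraries together. It lies on chromosome 10, 69335146 to 69352938, minus strand (GRCm38, GENCODE M21).

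Ccna2 encodes cyclin A2, the partner of Cdk2 in S phase and of Cdk1 at the approach to mitosis. It stood at 63.0, 78.0 and 102.6 in JHT libraries 1 to 3, against 19.6, 30.2 and 34.6 in WT libraries 1 to 3. Means were 81.2 ± 19.96 in JHT and 28.1 ± 7.67 in WT libraries (SD, n = 3 each), and the log2 change was 1.51 ± 0.40 (SE; limma adjusted p = 0.000315). Both groups kept within a 1.76-fold range. By GENCODE M21, 12.5% of Ccna2's 4083 exon bases (chromosome 3, 36564865 to 36572150, minus strand, GRCm38) lie over Exosc9 on the other strand. The values rest on a length of 3363 bases, and whether it includes the shared bases was not tested. Since strand is not stated for the counting, any reads from the shared bases cannot be told apart.

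Ccne1 encodes cyclin E1, which with Cdk2 brings cells into S phase, and it showed the largest fold of the 8. Its values were 26.2, 29.2 and 52.5 in JHT libraries 1 to 3, against 7.59, 2.61 and 8.51 in WT libraries 1 to 3. This gave 36.0 ± 14.4 in JHT and 6.24 ± 3.18 in WT libraries (SD, n = 3 each), with a log2 change of 2.41 ± 0.39 (SE; limma adjusted p = 3.3e-08). Its lowest JHT library was 3.08-fold above the highest WT library, a wider gap than in the other 7 genes. Its gene lies on chromosome 7, 38097984 to 38107534, minus strand, and shares no exon base with another gene.

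Among the mitotic kinases, Aurka, which acts at spindle poles, had 25.1, 43.8 and 37.4 in JHT libraries 1 to 3, against 7.83, 19.6 and 8.97 in WT libraries 1 to 3. The JHT mean was 35.4 ± 9.48 and the WT mean 12.1 ± 6.47 (SD, n = 3 each), giving a log2 change of 1.54 ± 0.40 (SE; limma adjusted p = 0.000215). The gap between groups was the narrowest of the 8, 1.28-fold between JHT-1 and WT-2. Aurka lies on chromosome 2, 172356190 to 172370535, minus strand.

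Aurkb is the kinase of the chromosomal passenger complex, which corrects chromosome attachment and acts in cytokinesis. It had 21.7, 54.5 and 50.7 in JHT libraries 1 to 3, against 15.8, 10.4 and 9.01 in WT libraries 1 to 3. Means were 42.3 ± 17.9 in JHT and 11.7 ± 3.57 in WT libraries (SD, n = 3 each), with a log2 change of 1.69 ± 0.40 (SE; limma adjusted p = 6.5e-05). JHT-1 lay well below the other JHT libraries, 1.38-fold above the highest WT library, WT-1. Aurkb lies on chromosome 11, 69045647 to 69051664, plus strand. Aurka and Aurkb are paralogs, and their transcripts share no 75-base stretch in GENCODE M21.

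Plk1, which acts on centrosomes, kinetochores and cytokinesis, was lower in level, with 14.3, 21.3 and 15.3 in JHT libraries 1 to 3, against 4.87, 9.60 and 1.84 in WT libraries 1 to 3. Means were 16.98 ± 3.80 in JHT and 5.43 ± 3.91 in WT libraries (SD, n = 3 each), and the log2 change was 1.66 ± 0.39 (SE; limma adjusted p = 8.1e-05). The WT libraries spread over a 5.23-fold range, and the smallest count behind a value was 103 reads. The change was 1.17 without WT-3 and 2.12 without WT-2, both past the threshold. Plk1 lies on chromosome 7, 122159439 to 122169873, plus strand, with 7.09% of its exon bases over Gm44985 on the other strand, and 5.92% of its 75-base stretches also occur in Gm44985 or the pseudogene Plk-ps1.

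Of the activators, Cdc20 had 39.4, 63.5 and 51.8 in JHT libraries 1 to 3, against 9.39, 16.5 and 8.32 in WT libraries 1 to 3. The JHT mean was 51.6 ± 12.1 and the WT mean 11.4 ± 4.47 (SD, n = 3 each), 4.51 times as high in JHT, with a log2 change of 2.11 ± 0.40 (SE; limma adjusted p = 1.3e-06). The lowest JHT library was 2.38-fold above the highest WT library. Cdc20 lies on chromosome 4, 118432901 to 118437352, minus strand, with 2.84% of its exon bases over Elovl1 on the other strand, a gene of the table that was also called higher in JHT (log2 change 1.42). Of the 75-base stretches of Cdc20, 4.403% also occur in another gene, Gm7856.

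Cdc25c encodes a phosphatase that removes inhibitory phosphates from Cdk1 and was the gene of lowest level. Its values were 5.30, 9.18 and 11.9 in JHT libraries 1 to 3, against 2.10, 1.57 and 2.87 in WT libraries 1 to 3. The means were 8.80 ± 3.33 in JHT and 2.18 ± 0.655 in WT libraries (SD, n = 3 each), 4.04-fold apart, while the log2 change of value plus 1 was 1.58 ± 0.41 (SE; limma adjusted p = 0.000231), since adding 1 understates the change of a low gene. WT-2 rested on 48 reads. Cdc25c lies on chromosome 18, 34732993 to 34751533, minus strand, and 12.7% of its 4919 exon bases in GENCODE M21 lie over Gm3550 on the other strand. Its values rest on a length of 1277 bases, and whether this includes the shared bases was not tested.

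In JHT libraries the means ordered as Cdk1, Ccna2, Cdc20, Aurkb, Ccne1, Aurka, Plk1 and Cdc25c, and in WT libraries as Cdk1, Ccna2, Aurka, Aurkb, Cdc20, Ccne1, Plk1 and Cdc25c. Neighbours overlapped in range except Aurka with Plk1 and Plk1 with Cdc25c in JHT, and Ccna2 with Aurka in WT libraries. JHT-1 was the lowest JHT library for 8 of 8 genes, where 52.0% of genes of the table had their lowest JHT value in it, and 6 of the 15 other cell cycle genes did. JHT-2 was highest for Cdk1, Aurka, Aurkb, Plk1 and Cdc20, and JHT-3 for Ccna2, Ccne1 and Cdc25c. Over the table JHT-2 was the highest JHT library for 19.7% of genes and JHT-3 for 64.4%. Among the 15 other cell cycle genes these counts were 2 and 10. In WT libraries the genes split: WT-2 was highest for Aurka, Plk1 and Cdc20 and lowest for Cdk1, Ccne1 and Cdc25c. Over the table WT-2 was the highest WT library for 49.6% of genes and the lowest for 18.2%. The sum of the 8 values was 281.9, 419 and 431 in JHT libraries 1 to 3, against 108, 122 and 126 in WT libraries 1 to 3.

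The ratio of 2 genes' deposited values within a library does not change when that library is multiplied by a factor, though it can change with quantile normalization. In all, 9 pairs of genes were compared by an exact two-sided permutation test, in which 3 against 3 libraries cannot go below p = 0.1. In 2 of the 9 pairs the groups did not overlap. The share of other gene pairs of the table that do not overlap was not computed, so this count has no background. Ccne1 over Cdk1 was 0.302, 0.243 and 0.482 in JHT libraries 1 to 3, against 0.187, 0.0816 and 0.165 in WT libraries 1 to 3, a 2.41-fold higher ratio in JHT (exact permutation p = 0.1, 0.45 adjusted over the 9 pairs). Cdc25c over Cdk1 was 0.0610, 0.0765 and 0.109 in JHT, against 0.0517, 0.0492 and 0.0556 in WT libraries, 1.53-fold higher (exact permutation p = 0.1, adjusted 0.45). With log2(value + 1) for both genes, Ccne1 over Cdk1 still did not overlap (log2 difference 1.07), while Cdc25c over Cdk1 did (0.24, in place of 0.62). Adding 1 shrinks the ratio of a gene as low as Cdc25c by construction, and no pair could reach an adjusted p under 0.05 in this design.

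Cdc20 over Cdk1 was 0.453, 0.529 and 0.475 in JHT libraries 1 to 3, against 0.231, 0.518 and 0.161 in WT libraries 1 to 3 (log2 difference 0.85 ± 0.50, SE; exact permutation p = 0.3, adjusted 0.675). WT-2 lay among the JHT libraries. Without WT-2 the number of pairs that did not overlap was 5, a count that leaving out a library can only keep or raise. The difference was 1.33 without WT-2 and 0.49 without WT-3. Aurka over Aurkb differed by -0.14 ± 0.59 on the log2 scale (SE; exact permutation p = 0.8), less than the spread between libraries, and ran from -0.63 without WT-1 to 0.33 without WT-2. In the 5 pairs not named, the groups overlapped, with adjusted p of 0.6 to 0.8 (exact permutation), and the sign of the difference turned for Ccna2 over Cdk1 without WT-1 (-0.06) and for Aurka (-0.06) and Plk1 (-0.24) over Cdk1 without WT-3.

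**Figure D2:**
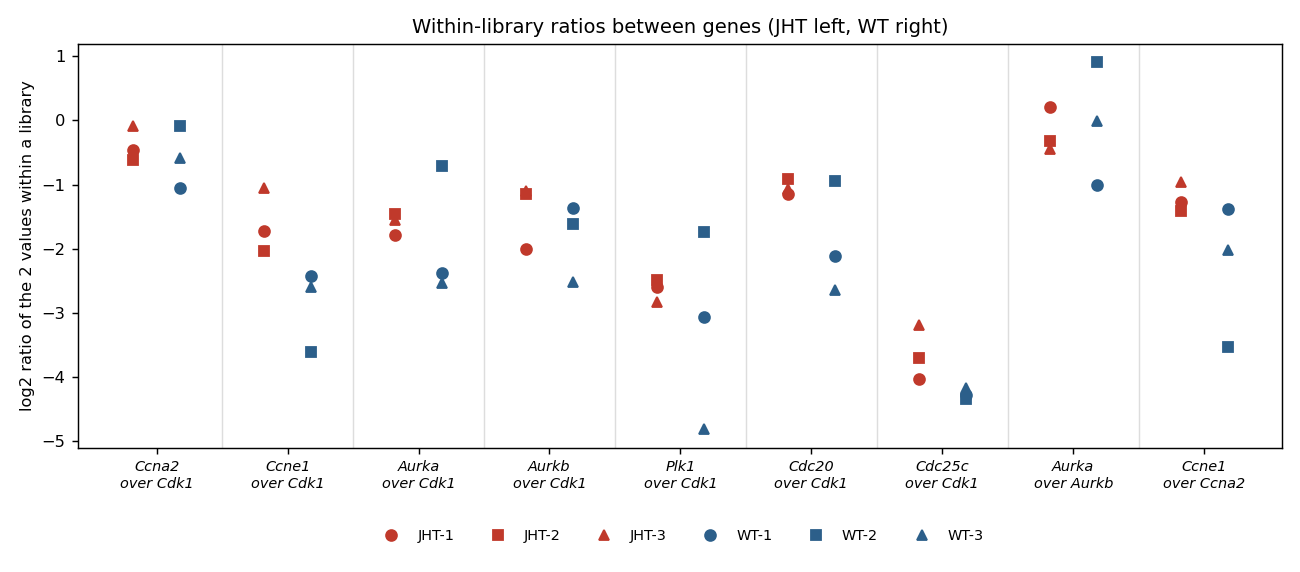
Log2 ratio of 2 genes' values within each library (y axis) for 9 pairs, JHT libraries left and WT libraries right in each pair. Ccne1 over Cdk1 and Cdc25c over Cdk1 do not overlap between groups, and WT-2 is the highest WT library in Aurka, Plk1 and Cdc20 over Cdk1.

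The level shared by the whole table was then taken out. When the median of the table was set equal in every library, the median log2 change was 0.18 over the 8 genes and 0.03 over the table, in place of 1.62 and 1.47 with the deposited scaling, and 0 of the 8 genes passed limma's threshold, where 2.06% of the table was called higher. The change was above 0 in 7 of the 8, where 53.3% of the table was. Ccne1 kept the largest change, 0.97 (limma adjusted p = 0.189), followed by Cdc20 at 0.67 (adjusted p = 0.359). Cdk1 was at -0.10 ± 0.26 (SE, limma adjusted p = 0.911), below 0 by less than its SE. Quantile normalization gave 0.89 for Ccne1, 0.68 for Cdc20 and -0.02 for Cdk1, with 0 of 8 called (2.55% of the table) and 7 of 8 above 0 (53.0% of the table). Because the table was selected for difference and most of its genes are higher in JHT, this step lowers a shared shift by construction, and how far the 8 genes differ from genes outside the table was not tested.

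**Figure D3:**
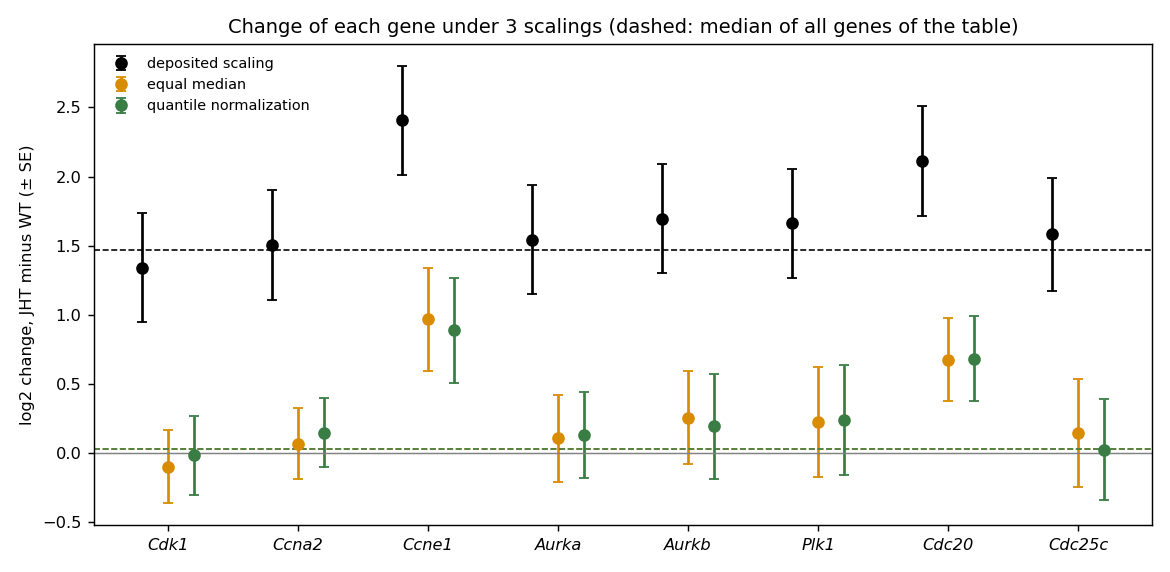
Log2 change, JHT minus WT (y axis; bars are SE), of each gene with the deposited scaling (black), equal library medians (orange) and quantile normalization (green); dashed lines are the median of all genes of the table. With the deposited scaling Ccne1 and Cdc20 stand farthest above the dashed line, and with the other scalings all changes lie between -0.10 and 0.97.

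Beside the 8 genes, 15 more of 108 listed cell cycle genes were in the table, and 15 of 15 were called higher in JHT with the deposited scaling, with a median fold of 3.14, beside 96.6% called higher and a median fold of 2.89 over the table. With equal medians 8 of the 15 lay above 0 and 7 (Melk, Fzr1, E2f2, Mki67, Pcna, Mcm3 and Stmn1) below, and with quantile normalization 10 lay above and 5 below, with 1 called higher in each case. With these scalings 53.3% and 53.0% of all genes of the table lay above 0. The other 85 were not analysed here. Among cyclins and their kinases, 5 of 19 were in the table and higher. Ccnd3, a D-type cyclin that acts early in the cycle, averaged 98.3 ± 11.3 in JHT and 30.4 ± 7.22 in WT libraries, and Cdk2, the partner of cyclins E and A, averaged 16.4 ± 1.10 in JHT and 4.67 ± 1.498 in WT libraries (SD, n = 3 each). Of 13 genes of CDK inhibition and inhibitory phosphorylation, 1 was in the table, Cdc25c. Of 20 mitotic kinases and cofactors 4 were in the table, with Melk beside the 3 kinases above, at 8.52 ± 1.82 in JHT and 3.22 ± 1.45 in WT libraries. Of 25 genes of the anaphase-promoting complex and spindle checkpoint, 4 were in the table. Fzr1, the other coactivator of the complex, was 2.94-fold higher in JHT, and Fbxo5, its inhibitor in S phase, had 76.0 ± 21.7 in JHT and 24.2 ± 1.89 in WT libraries. Anapc5, a subunit of the complex, was 5.11-fold higher.

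E2f2 was the only one of 19 transcriptional regulators in the table, at 7.58 ± 1.52 in JHT and 3.48 ± 1.34 in WT libraries (SD, n = 3 each; limma adjusted p = 0.0174). Of 12 proliferation markers 8 were in the table and higher, with a median fold of 3.07. Stmn1, a tubulin-binding protein, was 2.04-fold higher, Pcna, the clamp of DNA polymerases, 2.09-fold, Rrm2, a subunit of ribonucleotide reductase, 5.46-fold, and Mcm6, of the replicative helicase, 3.50-fold. The CD8 T cell gene Lck, a kinase of the T cell receptor pathway, was 2.29-fold higher. The folds of Lck, E2f2, Stmn1 and Pcna lay below the median of 2.89 over the table, and those of Rrm2 and Mcm6 above it.

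**Figure D4:**
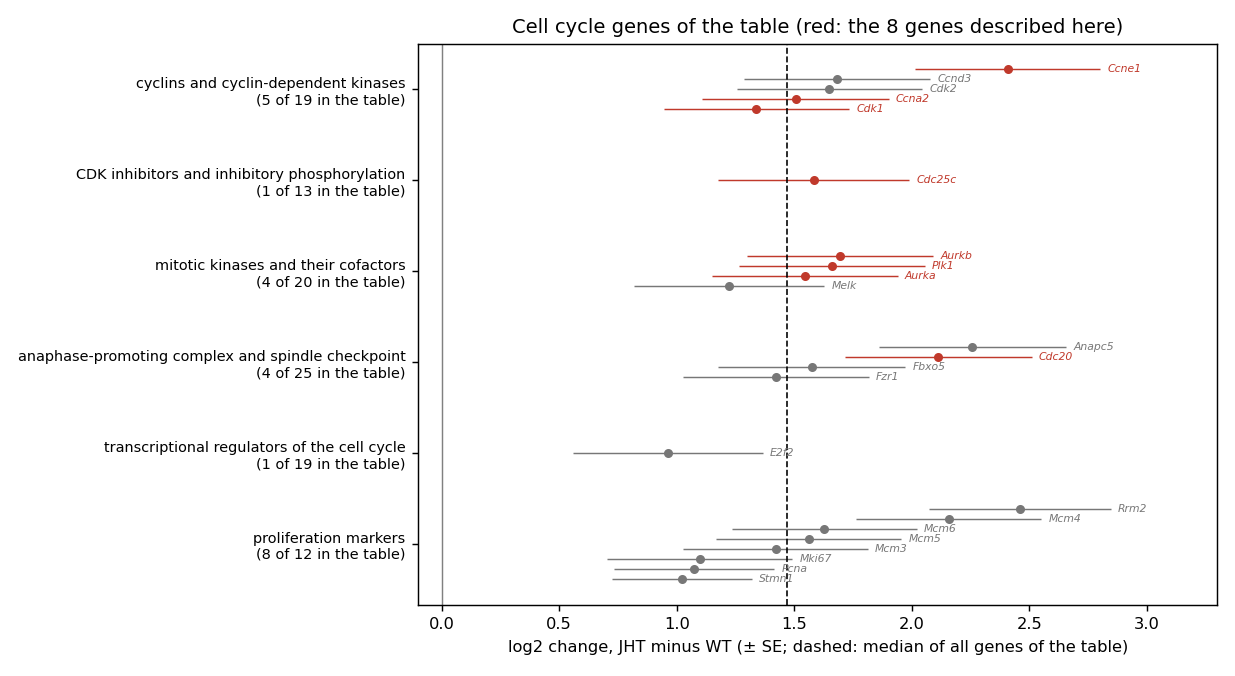
Log2 change, JHT minus WT (x axis; bars are SE), of the 23 cell cycle genes of the table, by list (y axis, with the number of each list in the table); the 8 genes are red, others grey, and the dashed line is the median of the table. All 23 lie above 0 with the deposited scaling, and Ccne1, Rrm2, Anapc5, Mcm4 and Cdc20 stand farthest to the right. With equal medians 7 of the 15 grey genes lie below 0, and so does Cdk1, by less than its SE.

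The genes nearest to the mean profile of the 8 over the 6 libraries, by root mean square log2 distance among 958 genes, were Rpn1 (0.105), Fbxo5 (0.120), Ftsj1 (0.130), Ciapin1 (0.150) and Nrros (0.154), with a median distance of 0.43 over the genes searched. The 8 genes themselves lay at 0.254 (Cdc25c) to 0.637 (Ccne1) from that mean.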

How the data were processed

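RNA from sorted M45 tetramer+ CD8+ T cells of 3 JHT and 3 WT libraries was amplified as full-length cDNA (SMART-Seq), made into Nextera XT libraries and read in pairs on a NovaSeq instrument. The authors trimmed adaptors and ran CLC Genomics Workbench with default settings on GRCm38; annotation and strand setting are not given in the sources used here. Values as deposited are a length-scaled signal per gene and library; the RPKM library total they would imply is not a whole number in 6 of 6 libraries. The authors' own score (a signed fold change) and p-value columns were used only to find what the table was selected on: all 1018 genes changed by 2-fold or more with an unadjusted p under 0.05. The methods of the study name an adjusted p as the criterion, but 0 of the 1018 genes are under 0.05 in the deposited column of FDR-corrected p-values.

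Values were tested as log2(value + 1) with limma 3.58.1 (R 4.3.3, empirical Bayes with trend). Genes of at least 1 in at least 3 libraries were kept, with Benjamini-Hochberg adjustment over the genes kept, all 1018 in fits to the 6 libraries. The pipeline was run on simulated data with as many raised as lowered genes and no selection of genes by difference. That setting is unlike this table, so the run does not bear on the p-values given here. Fold changes of log2(value + 1) understate low genes. Reads recovered cover counting error only, and the total depth per library is unknown. Other scalings, a smaller pseudocount, no filter, voom and leaving out each library were tried. The 8 genes were named in full, each cell cycle list by all its genes in the table if 6 or fewer and otherwise by the 4 of highest mean, and 5 genes of nearest profile. The members and lists were chosen with earlier results of these data known. WT and JHT libraries share replicate numbers but no source pairs them.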

Additional observations from a re-analysis of the deposited data

How the results depend on the processing

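Under the smaller pseudocount, voom and each library left out, 8 of 8 genes kept their direction and their side of the threshold. The smaller pseudocount also left all 1018 genes of the table called, so this is not particular to the 8. For the 8 genes every JHT library lay above every WT library, so leaving out a library or changing the pseudocount could not turn their direction. With all 6 libraries the filter removed no gene, so the fit with no filter was the same fit. The 1018 genes called fell to 56 with equal medians and 60 with quantile normalization, the 8 genes to 0 and 0, and their median log2 change to 0.18 and 0.17; Cdk1 became -0.10 and -0.017. These scalings set a shared shift to about 0 by construction. Without 1 library, 956 to 1010 genes were called and the median change of the 8 genes was 1.501 to 1.82. The filter then kept 1008 genes without a JHT library and 1017 without a WT library. Of the 9 ratio pairs, 2 to 5 did not overlap (5 without WT-2), a count that leaving out a library can only keep or raise. With log2(value + 1), 1 pair did not overlap. Plk1 ran from 1.17 without WT-3 to 2.12 without WT-2. With the replicate block, 1018 genes and 8 of 8 were called and the median change was 1.62. All 1018 genes were already called without the block, so it could add no call. Deviations from group means correlated at 0.168, 0.030 and 0.107 between same-numbered libraries, and at -0.133 to 0.031 between differently numbered ones. Whether the numbers pair the libraries was not tested. voom on recovered reads, an alternative chosen after seeing the data, called 1009 genes, with 979 higher in JHT, and 8 of 8, at a median of 1.88. The planned quasi-likelihood count test was not run, because reads per value differ with gene length. Low counts limit Cdc25c (48 reads in WT-2) and Plk1 (103 reads).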
